A study of Homo sapiens with 12 samples.

Results

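The 9 genes described here encode claudins (CLDN1, CLDN3, CLDN4, CLDN7 and CLDN12), occludin (OCLN), the junctional adhesion molecule JAM-A (F11R) and the scaffold proteins ZO-1 and ZO-3 (TJP1 and TJP3). They are the rows of the deposited array table whose gene name is 1 of these 9 symbols, 15 probes of 47228 in all. They were measured after knockdown of focal adhesion kinase (FAK) in the human pancreatic ductal adenocarcinoma lines MIA PaCa-2 and Capan-1. Every group carried a doxycycline-inducible hairpin in the pLKO.1 backbone. The groups were MIA PaCa-2 with shCtrl, a scrambled control, with sh1209 or with sh1319, both directed at FAK, and Capan-1 with the same 3 hairpins, the last of which its labels spell shFAK1319. Both lines received 50 ng/ml doxycycline for 96 hours. MIA PaCa-2 was kept in 3.5 ug/ml puromycin, Capan-1 in 1.5 ug/ml. Each Illumina HumanHT-12 v4 array took 500 ng of RNA. Every group had 2 arrays, and all 12 arrays of the 6 groups sat on 1 chip. The sources used here do not tell if the arrays within a group were grown as independent cultures, so errors and p-values measure only the spread between these arrays, which may be technical.

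Tight junctions seal the space between neighbouring epithelial cells near their apical side. Claudins form the paracellular strands and set which ions pass, occludin and the related MARVEL proteins shape the strands, JAM-A is an immunoglobulin-like adhesion molecule beside them, and the ZO proteins tie all of these to the actin cytoskeleton. FAK acts at the opposite, matrix-facing side of the cell, where it signals from integrins.

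The 9 genes were selected on log2 differences already seen in these arrays. CLDN1 was chosen by its rise over the 4 combinations of hairpin and cell line (a mean log2 difference of 2.48). Which differences led to the other 8 genes is not recorded. All their values are therefore given as a description, without p-values. Values are log2 intensities after background correction and quantile normalization, and a difference is the log2 difference of group means with its standard error. A difference is said to be past the threshold, and the gene to have risen or fallen, where limma's Benjamini-Hochberg adjusted p over all 24207 tested probes was under 0.05. Of the 15 probes, 11 were detected in at least 2 arrays and tested, with at least 1 for each of the 9 genes. Signals of detected probes began between 4.55 and 4.74 on this scale, depending on the array, and an offset of 16 understates the change of dim probes. Where a probe was detected on neither array of a group, a fold is given as a lower bound. It is taken against, for each array, the higher of the lowest signal among detected probes and the probe's own signal.

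Promoter sequence was available from RefSeq (GRCh38.p14, 250 bases before to 50 after each start) for 8 of the 9 genes, in 14 windows. Each window was searched on both strands for CACCTG, the E-box that the zinc-finger repressors of the SNAI and ZEB families bind, for TGANTCA, the AP-1 motif, and for AACNGGTT, the grainyhead motif. Of all 35116 promoter windows, 20.6% held CACCTG, 7.71% TGANTCA and 1.73% AACNGGTT. No match in the 14 windows overlapped another. CLDN3 and CLDN7, like TJP3, whose windows are not shown, were detected in no MIA PaCa-2 array. The windows of CLDN1, the gene with the largest hairpin differences, and of CLDN3 and CLDN7 are shown 5′ to 3′. CACCTG or its reverse complement CAGGTG is in capitals.
CLDN1 (chr3:190322397-190322696, minus strand): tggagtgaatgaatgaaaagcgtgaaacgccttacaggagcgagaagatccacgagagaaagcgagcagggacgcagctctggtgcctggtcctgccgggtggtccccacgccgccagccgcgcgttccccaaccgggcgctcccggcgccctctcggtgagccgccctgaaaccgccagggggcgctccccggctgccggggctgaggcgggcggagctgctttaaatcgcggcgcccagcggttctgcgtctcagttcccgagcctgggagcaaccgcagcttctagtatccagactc
CLDN3 (chr7:73770221-73770520, minus strand): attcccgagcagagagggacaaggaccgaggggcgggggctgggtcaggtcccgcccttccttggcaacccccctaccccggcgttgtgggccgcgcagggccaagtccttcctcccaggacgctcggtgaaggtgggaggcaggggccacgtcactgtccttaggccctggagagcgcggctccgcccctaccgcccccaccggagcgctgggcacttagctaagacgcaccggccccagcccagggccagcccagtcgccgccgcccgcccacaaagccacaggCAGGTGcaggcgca
CLDN7 (chr17:7262429-7262728, minus strand): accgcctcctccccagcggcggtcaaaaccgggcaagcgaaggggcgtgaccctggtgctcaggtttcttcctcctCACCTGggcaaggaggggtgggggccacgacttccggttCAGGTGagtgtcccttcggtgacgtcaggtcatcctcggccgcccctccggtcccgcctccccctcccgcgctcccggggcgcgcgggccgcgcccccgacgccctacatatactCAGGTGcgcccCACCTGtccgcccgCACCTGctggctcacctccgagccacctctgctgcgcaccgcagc

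This CLDN7 window, 1 of 2 for the gene, held 5 matches to CACCTG, a number reached by 33 of all 35116 windows (0.094%). The other CLDN7 window held none of the 3 motifs, and the CLDN3 window held 1 match to CACCTG. The CLDN1 window held none of the 3 motifs. OCLN had 1 and 2 matches to CACCTG in its 2 windows, TJP1 had 1 in 4 windows and TJP3 had 1 in 2 windows, while the CLDN12 window had no match. CLDN4, which neighbours CLDN3 on chromosome 7 with 0 annotated gene starts between them, held 2 matches to TGANTCA and none to CACCTG. The grainyhead motif was found in none of the 14 windows. A match describes the letters of the window and does not show binding.

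Over the arrays of the whole series, median deposited intensity lay between 87.7 and 97.0 and was higher on replicate 2 in every group. Detected probes numbered 16259 to 19814 of 47228, with more on every Capan-1 array than on any MIA PaCa-2 array. The 2 arrays of a group correlated at 0.991 to 0.994 across probes. PTK2, which encodes FAK, was lower with each hairpin at probe 450253, with log2 differences of -2.24 (sh1209) and -2.48 (sh1319) in MIA PaCa-2. The Capan-1 values were -0.61 and -1.78 (limma adjusted p between 5.16e-08 and 0.00362). Its dimmer probe 2680750 was not past the threshold in any of these pairs. Of 7 epithelial markers, 7 were detected in all 6 Capan-1 arrays (KRT7, KRT8, KRT18, KRT19, EPCAM, CDH1 and MUC1) and 3 in all 6 MIA PaCa-2 arrays (KRT8, KRT18 and MUC1), so EPCAM and CDH1 did not mark every MIA PaCa-2 array. Of 4 mesenchymal markers, VIM was detected throughout MIA PaCa-2 (summed list signal 15587 to 18566) and VIM and CDH2 throughout Capan-1 (211 to 325). None of the endothelial, immune and endocrine markers was detected in every array of either line, and of the acinar markers only PRSS1 was, in Capan-1. In lysates of whole cultures, fewer cells expressing a gene and less RNA per cell cannot be told apart.

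The first comparison sets the cell lines side by side with shCtrl, which asks how much of the junction program each line had before FAK was lowered. Capan-1 had the higher level of 8 of the 9 genes, and CLDN3, CLDN7, F11R and TJP3 were detected in no MIA PaCa-2 shCtrl array. Of the 11 tested probes, 10 were past the threshold and higher in Capan-1 and 0 were lower, beside 19.6% and 22.5% of all tested probes. The median log2 difference of the 11 probes was 2.79, beside -0.04 over all tested probes. Since the genes were selected, nothing is read from this count.

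CLDN7, a claudin of simple epithelia that also binds EPCAM, had the widest gap. Its signal lay between 4.21 and 4.40 in the 6 MIA PaCa-2 arrays, all without detection, and between 10.19 and 10.51 in the 6 Capan-1 arrays, at least 47.0-fold higher with shCtrl. F11R probe 3850561 was at least 33.6-fold higher in Capan-1 (4.63 and 4.31 against 9.67 and 9.89). F11R probe 50307 showed the same order at a lower signal and was at least 5.60-fold higher. CLDN3, a barrier-forming claudin, was at least 18.5-fold higher, with 8.81 and 9.02 in Capan-1, and TJP3 at least 6.68-fold, with 7.41 and 7.48. For all of these probes, no MIA PaCa-2 shCtrl array reached a Capan-1 array. These gaps were narrower without background correction, where the log2 differences with shCtrl were 3.93 for CLDN7 (6.01 with it), 3.36 and 1.27 for the F11R probes (5.31 and 2.79), 2.68 for CLDN3 (4.63) and 1.61 for TJP3 (3.26), all past the threshold.

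CLDN1, CLDN12 and TJP1 were detected in every array of both lines. CLDN1, the main barrier claudin of many epithelia, read 6.08 and 5.98 in MIA PaCa-2 against 10.54 and 10.38 in Capan-1, a difference of 4.43 ± 0.12 (SE, n = 2 and 2) or 21.5-fold. CLDN12, a claudin that lacks the usual PDZ-binding tail, differed by 1.01 ± 0.12 (2.02-fold), and TJP1 probe 5700504 by 1.31 ± 0.17 (2.48-fold). These groups did not overlap. The 2nd TJP1 probe, 1010386, differed by 0.72 ± 0.27 and was past the threshold in 9 of 18 alternative settings. It lost the call without either MIA PaCa-2 shCtrl array, either Capan-1 shCtrl array or either Capan-1 sh1209 array, with values from 0.54 to 0.90, as well as without a filter and with the replicate block. CLDN4, the claudin that neighbours CLDN3 in the genome, was dim in both lines (4.92 and 4.27 against 5.52 and 5.33). Its difference of 0.83 ± 0.20 fell to 0.50 and lost the call without MIA PaCa-2 shCtrl replicate 2. Without background correction the differences were 3.42 for CLDN1, 0.40 for TJP1 probe 1010386 and 0.30 for CLDN4.

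Occludin itself stood out by its low signal. OCLN probe 2570121 read between 4.28 and 5.08 and was detected in 6 of 12 arrays. In Capan-1 these were both shCtrl arrays, both sh1319 arrays and 1 sh1209 array, and in MIA PaCa-2 1 shCtrl array. The probe was not past the threshold between the lines (0.29 ± 0.16) or in any hairpin comparison. Of the other OCLN probes, 5260020 was detected in 1 array and 520767 and 450050 in none, so they were not tested. The 3rd F11R probe, 2850398, was detected in no array either. These signals are at or near the limit of detection in both lines, where a small difference could not be measured.

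**Figure D1:**
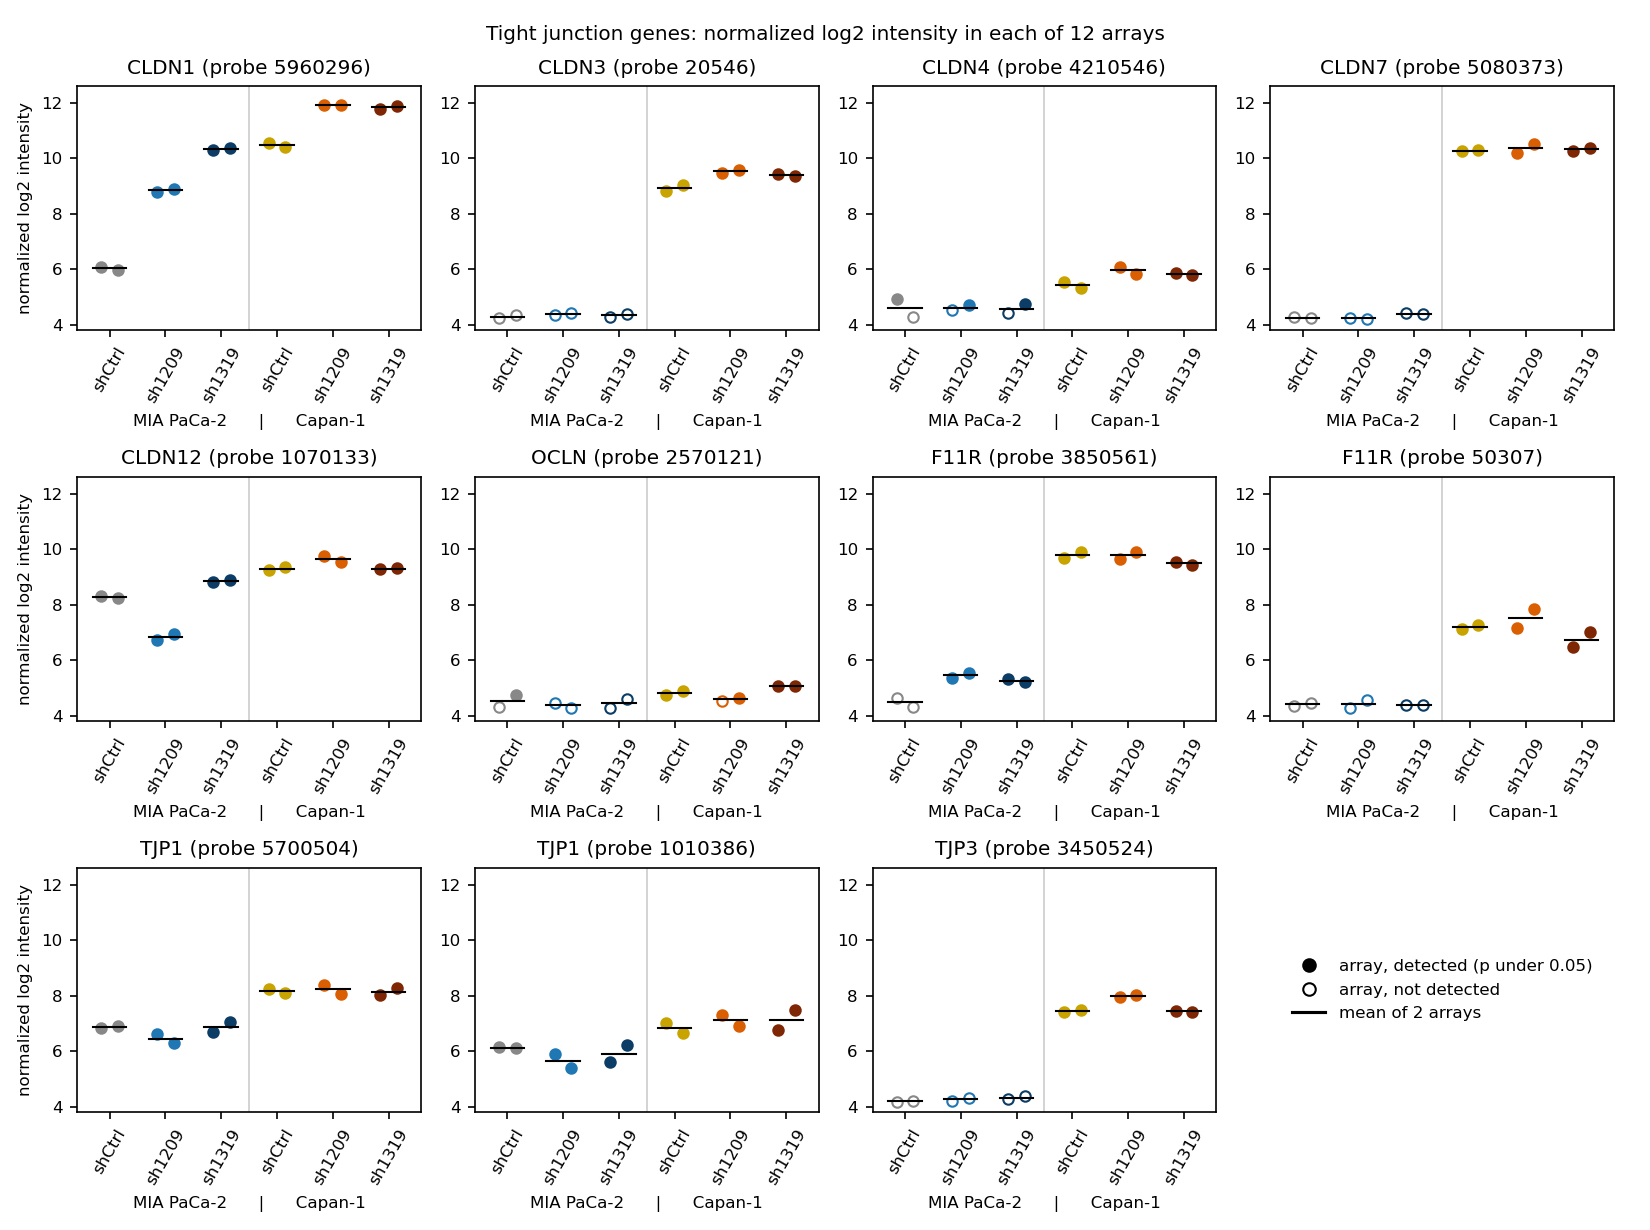
Normalized log2 intensity (vertical axis) of the 11 tested probes in each of the 12 arrays, by hairpin within each cell line. Filled points are arrays with a detection p under 0.05, open points are arrays without detection and bars are means of 2 arrays. CLDN3, CLDN7, F11R and TJP3 had open points for MIA PaCa-2 shCtrl and filled points between 7.13 and 10.28 for Capan-1 shCtrl, while CLDN1 climbed from 6.03 to 10.33 across the MIA PaCa-2 groups.

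**Figure D2:**
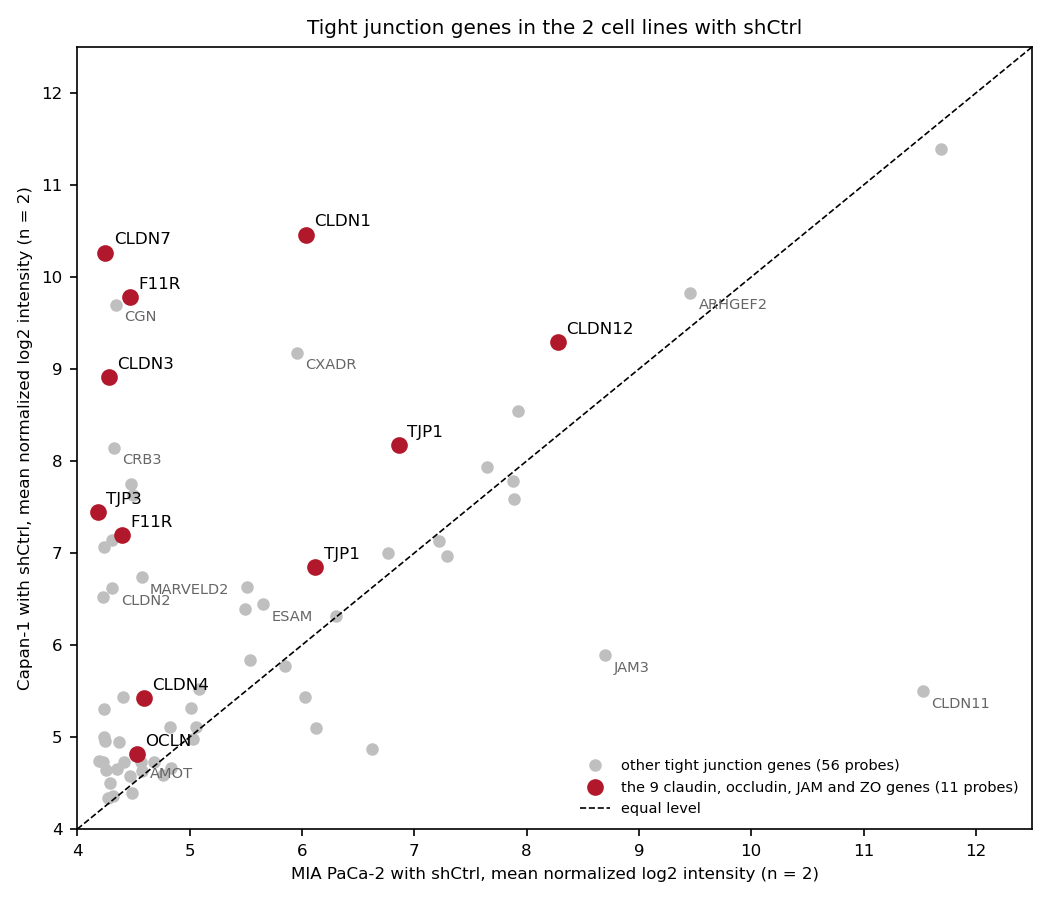
Mean normalized log2 intensity with shCtrl (n = 2 arrays each) in MIA PaCa-2 (horizontal axis) and Capan-1 (vertical axis), for the 11 tested probes of the 9 genes in red and 56 probes of other tight junction genes in grey. All red points lay above the dashed line of equal level, and CLDN11 (11.53 against 5.50) and JAM3 (8.70 against 5.89) lay far below it.

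The second set of comparisons asks what changed when FAK was lowered in MIA PaCa-2. CLDN1, CLDN12 and F11R moved, and the other 6 genes were not past the threshold with either hairpin. With sh1209, 2 of the 11 probes were past the threshold and higher and 1 was lower, beside 9.05% and 8.99% of all tested probes. With sh1319, 3 were higher and 0 lower, beside 12.2% and 12.1%. The median log2 differences of the 11 probes were 0.02 and 0.05, beside 0.01 and -0.01 over all tested probes. Both hairpins were set against the same 2 shCtrl arrays.

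CLDN1 rose with both hairpins and did so by more than any other of the 9 genes. Its signal was 6.08 and 5.98 with shCtrl, 8.79 and 8.90 with sh1209 and 10.28 and 10.38 with sh1319. In deposited intensity, which the authors did not normalize, this was 130 and 124 with shCtrl and 1248 and 1692 with sh1319. The groups were separate, and the sh1319 arrays lay closest to the level of Capan-1 with shCtrl. The log2 differences were 2.81 ± 0.12 (SE, n = 2 and 2), a 7.03-fold rise, and 4.29 ± 0.12, a 19.6-fold rise. The 2 hairpins also differed from each other, by -1.48 ± 0.12 for sh1209 against sh1319. Without background correction the rises were smaller, at 1.95 and 3.29 on the log2 scale, and past the threshold.

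CLDN12 moved in opposite directions with the 2 hairpins. Its signal was 8.33 and 8.23 with shCtrl, 6.73 and 6.93 with sh1209 and 8.80 and 8.89 with sh1319, and the 3 groups did not overlap. It fell by 1.44 with sh1209 (SE 0.12), a 2.72-fold drop, and rose by 0.57 ± 0.12 with sh1319, a 1.48-fold rise. The hairpins differed by -2.01 ± 0.12, or 4.02-fold, the widest gap between hairpins among the 9 genes. CLDN1 and CLDN12 were the 2 of 11 probes that differed between sh1209 and sh1319 in MIA PaCa-2, both lower with sh1209, and 0 were higher, beside 11.2% lower and 11.5% higher over all tested probes.

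**Figure D3:**
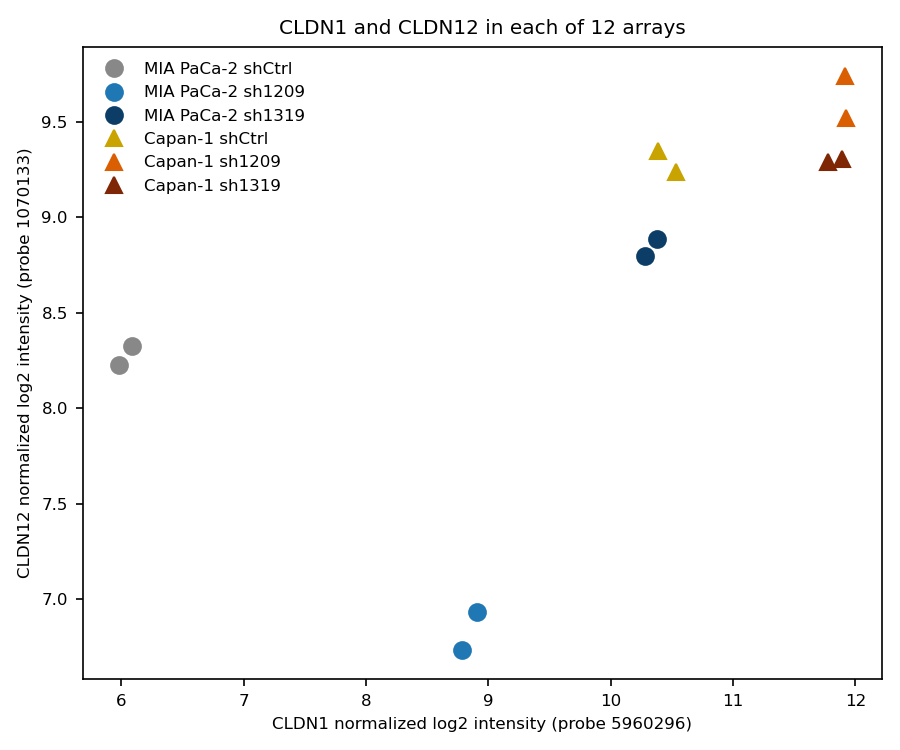
Normalized log2 intensity of CLDN1 (horizontal axis) and CLDN12 (vertical axis) in each of the 12 arrays, with circles for MIA PaCa-2, triangles for Capan-1 and 1 colour per group. In MIA PaCa-2 the sh1209 arrays had more CLDN1 (8.79 and 8.90) and less CLDN12 (6.73 and 6.93) than shCtrl, while the sh1319 arrays had more of both.

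F11R probe 3850561 passed from undetected to detected. It read 4.63 and 4.31 with shCtrl, both without detection, 5.35 and 5.55 with sh1209 and 5.31 and 5.21 with sh1319, all 4 detected. The fitted differences were 0.98 ± 0.15 and 0.79 ± 0.15, which are at least 1.67-fold and at least 1.47-fold rises. Without background correction they were 0.33 and 0.26, past the threshold. These signals remained far below the 9.67 and 9.89 of Capan-1 with shCtrl, and F11R probe 50307 was detected in no MIA PaCa-2 array. CLDN3, CLDN7 and TJP3 likewise had no detected array with either hairpin, and CLDN4 had 1 detected array of 2 with each (means of 4.61 and 4.58, against 4.60 with shCtrl). TJP1 probe 5700504 read 6.82 and 6.90 with shCtrl and 6.60 and 6.28 with sh1209, a difference of -0.42 ± 0.17 that was not past the threshold. Its other probe gave -0.48 ± 0.27 with sh1209, and with sh1319 the probes gave 0.00 ± 0.17 and -0.21 ± 0.27.

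In Capan-1, CLDN1 and CLDN3 rose with both FAK hairpins, and TJP3 rose with sh1209. With sh1209, 3 of the 11 probes were past the threshold and higher and 0 were lower, beside 8.14% and 8.69% of all tested probes. With sh1319, 2 were higher and 0 lower, beside 6.95% and 6.77%. The medians of the 11 probes were 0.32 and 0.06, beside -0.01 and 0.00 over all tested probes.

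CLDN1 read 10.54 and 10.38 with shCtrl, 11.91 and 11.92 with sh1209 and 11.78 and 11.89 with sh1319. Both hairpin groups lay above both control arrays. The rises were 1.46 ± 0.12 (2.75-fold) with sh1209 and 1.37 ± 0.12 (2.59-fold) with sh1319, and the hairpins differed by 0.08 ± 0.12, which was not past the threshold. Over all 6 groups CLDN1 ran from MIA PaCa-2 with shCtrl, sh1209 and sh1319 to Capan-1 with shCtrl, sh1319 and sh1209. In that order, MIA PaCa-2 sh1319 (up to 10.38) and Capan-1 shCtrl (from 10.38) met within 0.01, and the 2 Capan-1 hairpin groups differed by less than the standard error.

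CLDN3 read 8.81 and 9.02 with shCtrl, 9.46 and 9.58 with sh1209 and 9.43 and 9.36 with sh1319. No hairpin array reached down to a control array. The rises of 0.60 ± 0.12 (1.52-fold) and 0.48 ± 0.12 (1.40-fold) rested on single arrays for their calls. The first was no longer past the threshold without Capan-1 shCtrl replicate 1 (0.50) or sh1209 replicate 2 (0.54), and the second without Capan-1 shCtrl replicate 1 (0.38), sh1319 replicate 1 (0.45) or sh1319 replicate 2 (0.52). CLDN4, its neighbour, read 5.52 and 5.33 with shCtrl, 6.07 and 5.83 with sh1209 and 5.85 and 5.79 with sh1319. Neither hairpin group overlapped shCtrl, but differences of 0.53 ± 0.20 and 0.40 ± 0.20 were not past the threshold.

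TJP3, the ZO protein most restricted to epithelia, differed between the hairpins. It read 7.41 and 7.48 with shCtrl, 7.96 and 8.02 with sh1209 and 7.46 and 7.43 with sh1319, so that only the sh1209 arrays stood above control. The rise with sh1209 was 0.54 ± 0.11 (1.46-fold), against -0.01 ± 0.11 with sh1319. TJP3 and F11R probe 50307 (0.78 ± 0.22, or 0.51 without background correction) were the 2 of 11 probes past the threshold between sh1209 and sh1319 in Capan-1, both higher with sh1209, and 0 were lower, beside 5.81% higher and 5.47% lower over all tested probes. This count lay between 0 and 3 when single arrays were left out, at 0 without Capan-1 sh1209 replicate 2 and at 1 without either sh1319 array of MIA PaCa-2 or Capan-1 or either Capan-1 shCtrl array. It was 3 without either MIA PaCa-2 shCtrl array.

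CLDN7, CLDN12, F11R, TJP1 and OCLN were not past the threshold with either hairpin in Capan-1. CLDN7 read between 10.19 and 10.51 across the 6 arrays, with differences of 0.09 and 0.06 (SE 0.12). CLDN12 read 9.24 and 9.34 with shCtrl and 9.29 and 9.31 with sh1319, within the control range, and 9.74 and 9.52 with sh1209 (0.34 ± 0.12). F11R probe 3850561 gave 0.00 ± 0.15 with sh1209 and -0.30 ± 0.15 with sh1319, and probe 50307 gave 0.32 ± 0.22 and -0.46 ± 0.22. TJP1 gave differences between -0.04 and 0.28 over both probes and both hairpins.

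**Figure D4:**
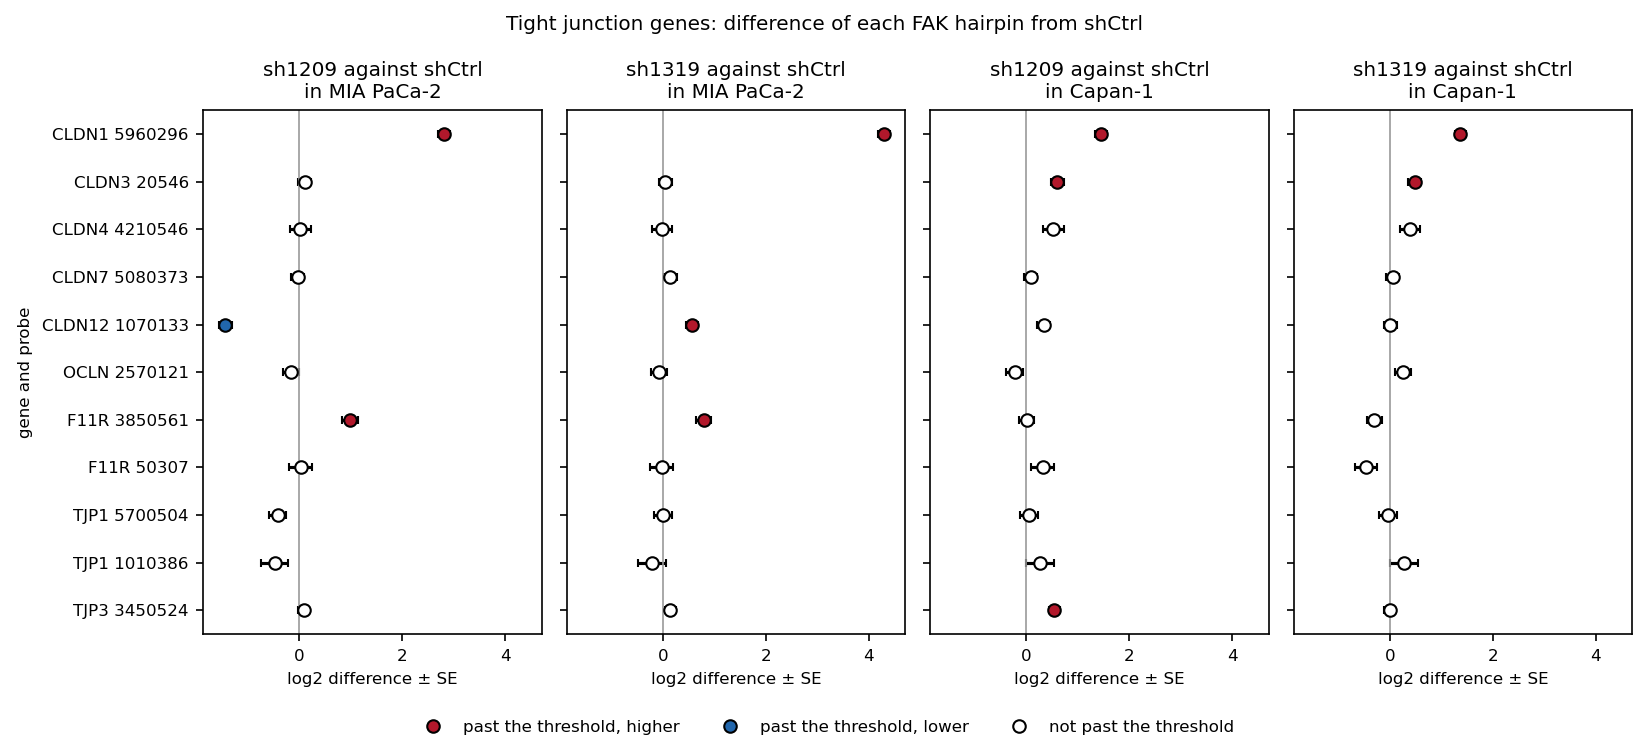
Log2 difference of each FAK hairpin from shCtrl (horizontal axis, with SE bars from the fit, 2 arrays per group) for the 11 tested probes, with 1 panel per hairpin and cell line. Red points were past the threshold and higher, blue lower and white neither. CLDN1 was red in all 4 panels, from 1.37 to 4.29, and CLDN12 was blue with sh1209 (-1.44) and red with sh1319 (0.57) in MIA PaCa-2.

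Whether the hairpin differences themselves differed between the lines was given by the interaction, the mean difference of both hairpins from shCtrl in MIA PaCa-2 minus that in Capan-1. It was past the threshold and positive for CLDN1 (2.14 ± 0.14) and F11R probe 3850561 (1.03 ± 0.18), and negative for CLDN12 (-0.61 ± 0.15). These are 2 of 11 probes higher and 1 lower, beside 7.24% and 7.11% of all tested probes. The CLDN12 call was lost without MIA PaCa-2 shCtrl replicate 1 (-0.56) or Capan-1 shCtrl replicate 1 (-0.56), and with median scaling (-0.69), which also took the call from F11R (0.73). Without background correction the interaction was 1.25 for CLDN1 and 0.43 for F11R, both past the threshold. For CLDN3 the interaction was -0.47 ± 0.15, for TJP1 probe 1010386 -0.62 ± 0.33 and for F11R probe 50307 0.07 ± 0.27, none past the threshold.

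Scaling the arrays to 1 median in place of quantile normalization shifted the difference of a tested probe by a median of 0.14 (sh1209) and 0.15 (sh1319) in the Capan-1 pairs, and by less than 0.1 in the other comparisons. The median over all tested probes went from -0.01 to 0.09 and from 0.00 to 0.11 in those pairs. Among all tested probes past the threshold it gave 2562 higher and 1284 lower for sh1319 in MIA PaCa-2 (2964 and 2923 with quantile normalization), 2009 and 450 for sh1209 in Capan-1 (1971 and 2103), and 1936 and 334 for sh1319 in Capan-1 (1682 and 1640). It gave 581 and 1253 for the interaction (1753 and 1722) and 1206 and 2271 for sh1209 against sh1319 in MIA PaCa-2 (2773 and 2705). The 28 called differences of the 9 genes, over the 4 pairs, the cell lines, the interaction and the hairpins compared, had the same direction with either scaling, and 24 were past the threshold with median scaling.

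The rest of the tight junction was taken from lists of textbook members: 16 other claudins, 13 other membrane proteins and 30 plaque and polarity proteins. All 59 genes were on the array, and 56 of their 102 probes, for 42 genes, were tested. Between the cell lines, 22 of these probes were higher in Capan-1 and 5 lower, with a median of 0.29, beside 19.6% higher, 22.5% lower and a median of -0.04 over all tested probes. Probes detected in 1 line alone passed the filter through that line. By list, 2 other claudin probes were higher and 2 lower of 11, 11 membrane protein probes were higher and 1 lower of 17, and 9 plaque and polarity probes were higher and 2 lower of 28. In contrast to the 9 genes, the most distant claudin was CLDN11, a claudin of myelin and testis, which read 11.53 ± 0.03 (SD, n = 2) in MIA PaCa-2 against 5.50 ± 0.12 in Capan-1, a difference of -6.03 ± 0.14 (SE). Cingulin (CGN), a plaque protein that binds ZO-1, was at least 31.8-fold higher in Capan-1 and the polarity protein CRB3 (probe 7400524) at least 10.8-fold. Both were detected in no MIA PaCa-2 array. The coxsackie and adenovirus receptor CXADR, an immunoglobulin-like junction protein, was higher by 3.22 ± 0.14.

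With the FAK hairpins, 6 list probes were higher and 3 lower for sh1209 in MIA PaCa-2, 6 and 4 for sh1319, 6 and 4 for sh1209 in Capan-1 and 9 and 4 for sh1319, with medians between -0.03 and 0.05. Of all tested probes, 9.05% were higher and 8.99% lower in the first of these pairs, 12.2% and 12.1% in the second, 8.14% and 8.69% in the third and 6.95% and 6.77% in the last. MARVELD2 (tricellulin), which seals the corners where 3 cells meet, read 4.43 and 4.71 with shCtrl, 5.63 and 5.45 with sh1209 and 6.09 and 6.46 with sh1319 in MIA PaCa-2. MARVELD2 was detected in 1 of these 2 shCtrl arrays, near the limit (detection p of 0.049). It rose by 0.97 ± 0.15 and 1.70 ± 0.15 there (limma adjusted p = 0.000723 and 6.6e-06), and in Capan-1 by 0.75 ± 0.15 with sh1319 (adjusted p = 0.00552), while sh1209 gave 0.35 ± 0.15 (adjusted p = 0.138). Without background correction its rises were 0.33 and 0.66 in MIA PaCa-2 and 0.49 with sh1319 in Capan-1, past the threshold. CXADR rose by 1.95 ± 0.14 (1.21 without background correction) with sh1319 in MIA PaCa-2 (adjusted p = 1.3e-06). Its smaller rises of 0.52 with sh1209 in MIA PaCa-2 and 0.62 with sh1319 in Capan-1 (adjusted p = 0.021 and 0.0109) lost their calls when 1 of 3 arrays each was left out: MIA PaCa-2 sh1209 replicate 1 (0.57), sh1209 replicate 2 (0.47) or shCtrl replicate 2 (0.34), and Capan-1 shCtrl replicate 1 (0.66), shCtrl replicate 2 (0.59) or sh1319 replicate 1 (0.59).

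JAM-C and ESAM, which belong with JAM-A to the immunoglobulin-like adhesion molecules, were lower in some of the pairs. JAM3 read 8.78 and 8.62 with shCtrl and 7.35 and 7.24 with sh1209 in MIA PaCa-2, a fall of 1.40 (SE 0.12; limma adjusted p = 8.72e-06), while sh1319 gave 0.06 ± 0.12 (adjusted p = 0.802). In Capan-1 it fell by 0.69 and 0.96 (adjusted p = 0.00207 and 0.000343). ESAM was detected in both MIA PaCa-2 shCtrl arrays and in no MIA PaCa-2 array with a FAK hairpin, which puts the sh1209 level at least 1.99-fold and the sh1319 level at least 1.93-fold below control (limma adjusted p = 0.00142 and 0.000847). In Capan-1 it was detected in all 6 arrays and its differences were -0.62 and -0.08 (adjusted p = 0.0645 and 0.873). Without background correction the log2 differences were -0.44 and -0.45 for ESAM in MIA PaCa-2 (-1.26 and -1.27 with it) and -0.27 and -0.36 for JAM3 in Capan-1, past the threshold.

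Of the other claudins, CLDN11 was past the threshold in all 4 pairs, by 0.51, 0.89, 0.68 and 0.71 (SE 0.14; limma adjusted p = 0.0209, 0.00052, 0.0055 and 0.00493 for sh1209 and sh1319 in MIA PaCa-2, then in Capan-1). The first of these calls was lost without MIA PaCa-2 shCtrl replicate 1 (0.54), shCtrl replicate 2 (0.49) or sh1209 replicate 1 (0.33), and the third without Capan-1 shCtrl replicate 2 (0.59). CLDN2, a pore-forming claudin that was detected in no MIA PaCa-2 array, moved in opposite directions in Capan-1. It read 6.83 and 6.40 with shCtrl, 7.49 and 7.44 with sh1209 and 6.01 and 6.06 with sh1319. It rose by 0.85 ± 0.14 with sh1209 (adjusted p = 0.00166) and fell by 0.58 with sh1319 (adjusted p = 0.0163), the latter losing its call without Capan-1 shCtrl replicate 1 (-0.37), sh1319 replicate 1 (-0.56) or sh1319 replicate 2 (-0.60).

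Among plaque proteins, AMOT (angiomotin), which binds polarity proteins and YAP, rose by 1.22 ± 0.17 and 1.20 ± 0.17 in Capan-1 (limma adjusted p = 0.000512 and 0.000811). Without background correction the rises were 0.45 and 0.44. AMOT was detected in 1 of 2 Capan-1 shCtrl arrays (4.44 and 5.02), and in MIA PaCa-2 in 1 sh1209 array alone. In MIA PaCa-2 its differences were 0.06 and -0.20 (SE 0.17; adjusted p = 0.868 and 0.474). ARHGEF2, a RhoA exchange factor held at the junction by cingulin, fell with sh1209 by 0.87 in the first line and by 0.91 in the other (SE 0.12; adjusted p = 0.000463 and 0.000434). With sh1319 its differences were -0.31 and -0.33 (adjusted p = 0.0974 and 0.111). With median scaling, calls were lost for CXADR with sh1209 in MIA PaCa-2, for JAM3 and CLDN11 with sh1209 in Capan-1 and MIA PaCa-2 respectively, and for CLDN2 with sh1319 in Capan-1. CGN and CRB3, among the proteins that set the cell lines furthest apart, were not past the threshold in any of the 4 pairs at the probes named above.

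**Figure D5:**
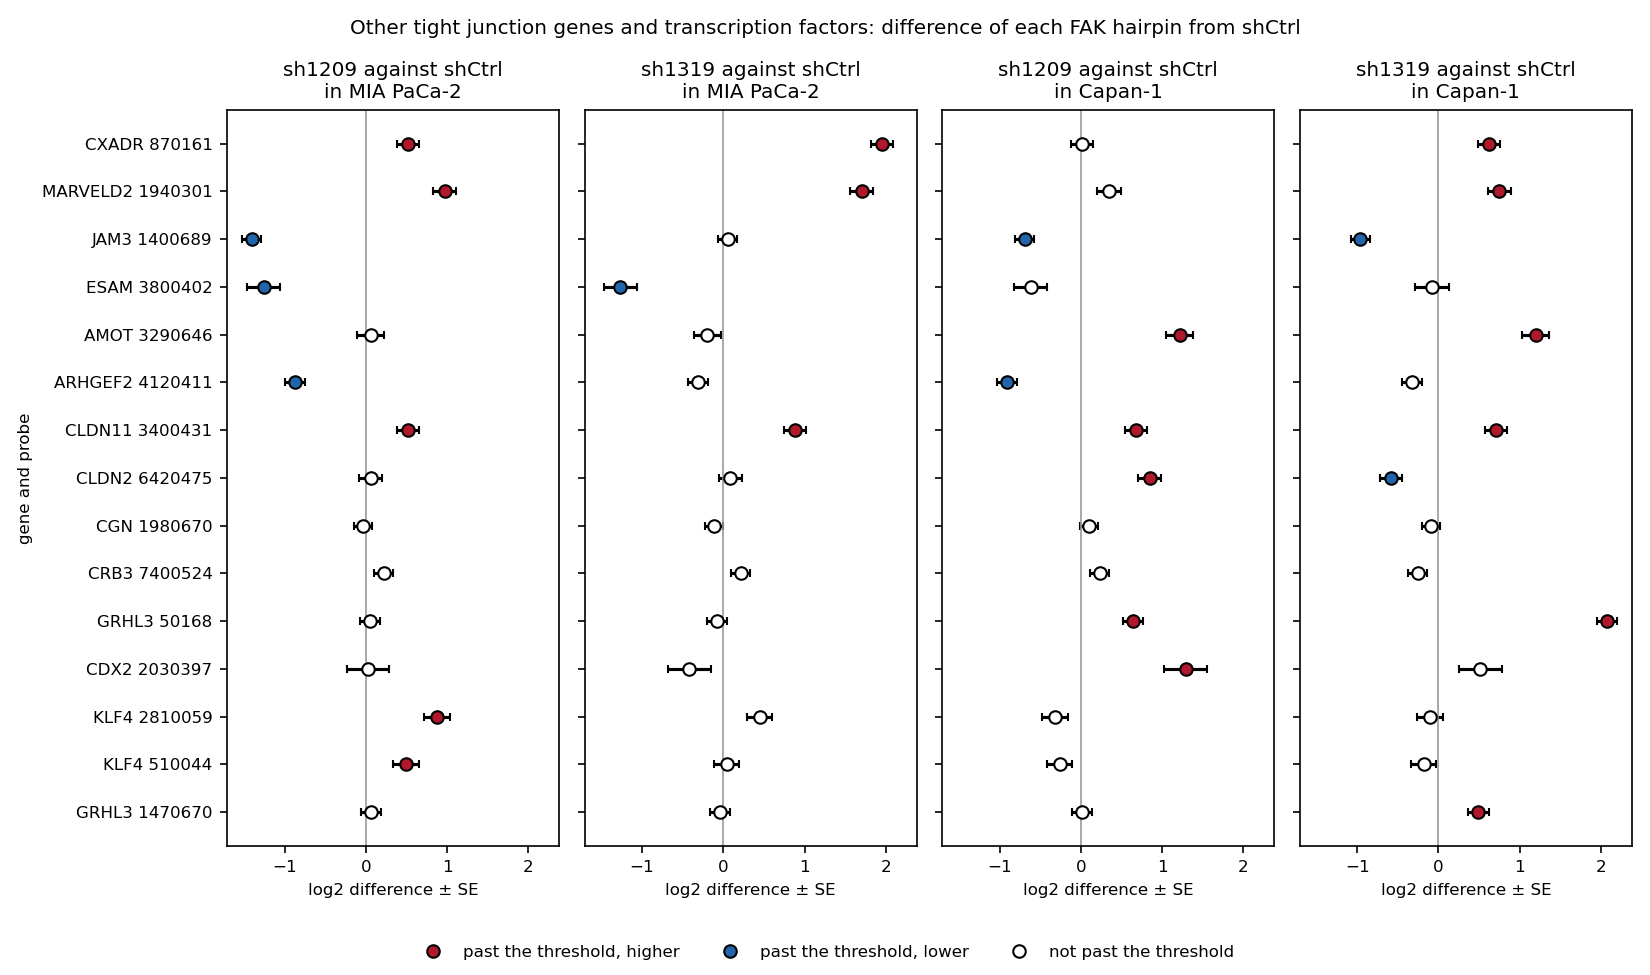
Log2 difference of each FAK hairpin from shCtrl (horizontal axis, with SE bars from the fit, 2 arrays per group) for the probes named from the lists of other tight junction genes and of transcription factors, with 1 panel per hairpin and cell line. Red points were past the threshold and higher, blue lower and white neither. CLDN11 was red in all 4 panels (0.51 to 0.89), and CGN and CRB3 were white throughout.

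Transcription factors known to act on claudin and occludin genes were listed separately: 17 genes, of which 16 were on the array and 10 had tested probes, 15 in all. The E-box repressors SNAI1, ZEB1 and ZEB2, named after their values were seen, were detected in no array of either line. This does not show that these genes were silent, since a probe can miss a gene that is expressed. F11R probe 2850398, for example, was detected in no array, while F11R probe 3850561 was detected in every Capan-1 array. The listed SNAI2 and TWIST1 are not described here. Between the lines, 9 of the 15 probes were higher in Capan-1 and 0 lower, with a median of 0.56, beside 19.6%, 22.5% and -0.04 over all tested probes. ELF3 and OVOL2, epithelial factors also named after their values were seen, were higher by 4.75 ± 0.18 and 2.55 ± 0.13, and each was detected in 1 of the 2 MIA PaCa-2 shCtrl arrays. With the hairpins, 2 of the 15 probes rose and 1 fell for sh1209 in MIA PaCa-2, and 0 rose and 1 fell for sh1319. In Capan-1, 2 rose and 0 fell with each hairpin. Over all tested probes, 9.05% rose and 8.99% fell in the first of these pairs, and 12.2% and 12.1% in the second. The Capan-1 shares were 8.14% and 8.69% with sh1209 and 6.95% and 6.77% with sh1319. The 2 rises with sh1209 in MIA PaCa-2 were both KLF4 probes. Those with sh1319 in Capan-1 were both GRHL3 probes, of which 1470670 passed the detection filter only through that group. Each of these 2 counts thus came from 1 gene.

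The largest of these changes was in GRHL3, a grainyhead factor of surface epithelia. Probe 50168 read 4.90 and 5.10 with shCtrl, 5.58 and 5.70 with sh1209 and 7.12 and 7.03 with sh1319 in Capan-1, and was detected in no MIA PaCa-2 array. It rose by 0.64 ± 0.12 and 2.08 ± 0.12 in Capan-1 (limma adjusted p = 0.00406 and 2.88e-06), or by 0.23 and 0.99 without background correction. A dimmer GRHL3 probe, 1470670, was detected in the 2 Capan-1 sh1319 arrays alone, at least 1.16-fold above control, and passed the filter only through that group. KLF4, a gut and skin epithelial factor, rose with sh1209 in MIA PaCa-2 by 0.88 ± 0.16 at probe 2810059 (adjusted p = 0.00259), and by 0.50 ± 0.15 at probe 510044 (adjusted p = 0.0458), a call that held in 7 of 18 alternative settings and was lost when any 1 of 8 arrays was left out (0.44 to 0.55), those 8 being the shCtrl and sh1209 arrays of both lines. CDX2, an intestinal factor, rose by 1.29 ± 0.26 with sh1209 in Capan-1 (adjusted p = 0.00594) and lost the call without Capan-1 shCtrl replicate 1 (0.96).

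Genes with a pattern like that of CLDN1 were sought over the 12 arrays after each cell line was centred on its mean, among 2995 probes whose group means spanned at least 1 within a line. The 5 most like it were RRAGB (Pearson r = 0.988), JUND (0.987), MED16 (0.986), IGFBP4 (0.986) and ADM (0.980). These are descriptions across 12 arrays of 6 groups that share chip, scaling and control arrays. RRAGB encodes a Rag GTPase of nutrient sensing, JUND an AP-1 subunit, MED16 a Mediator subunit, IGFBP4 a secreted binder of insulin-like growth factors and ADM the vasodilator peptide adrenomedullin. Their differences with sh1209 and sh1319 in MIA PaCa-2 were 1.42 and 1.93 for RRAGB, 1.44 and 2.20 for JUND, and 2.28 and 2.77 for ADM. In Capan-1 the corresponding values were 0.82 and 0.57 for RRAGB, 1.10 and 0.74 for JUND, and 0.90 and 0.73 for ADM. Each was smaller than in MIA PaCa-2, as for CLDN1, a likeness by which these probes were chosen. Among the 9 genes themselves, on the same centred scale, CLDN1 correlated at 0.68 with F11R probe 3850561, 0.44 with CLDN7 and 0.41 with CLDN3. With TJP3 it gave 0.38, with CLDN4 0.24 and with the remaining probes between -0.16 and 0.13. CLDN12 and TJP1 probe 5700504 had the highest value between different genes, 0.70. CLDN3, CLDN7 and TJP3 were detected in no MIA PaCa-2 array and CLDN4 in 1 of 2 per group, near the limit of detection.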

How the data were processed

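Each of 12 Illumina HumanHT-12 v4 arrays held RNA of 1 sample, 2 for each of 6 groups taken from the labels, in which shFAK1319 was read as sh1319. Linear probe intensity values and detection p-values were deposited without normalization or background subtraction, and the submitters' processing notes name GenomeStudio 2011.1. Of 47320 rows, 92 were spike-in controls, dropped after background correction, and 28 columns were empty. The number of unused per-sample columns was 0, and the lowest deposited intensity was 66.6.

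limma 3.58.1 in R 4.3.3 corrected background with nec (normexp on detection p-values, offset 16) and quantile-normalized the log2 intensities. A probe was tested where its detection p was below 0.05 on 2 or more of 12 arrays, which kept 24207 of 47228. Models of 6 group means (lmFit, eBayes) left 6 residual degrees of freedom. Benjamini-Hochberg adjustment ran over all tested probes of a comparison. The number of arrays limits the precision. The fit was tested on simulated data. Probes of a gene were kept apart. Figures were drawn with matplotlib 3.10.9.

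The 9 genes and all lists were chosen with earlier results of these data known, the lists from textbook membership. Named were the 9 genes and PTK2, from the 3 tight junction lists the 8 probes with the largest called difference in any pair and the 5 with the largest between the cell lines, the 6 such probes of the transcription factor list in the pairs, and the 5 probes most like CLDN1. Of these, 2 list probes are not reported here. Of the listed genes, markers included, 102 had their current symbol in RefSeq (GRCh38.p14), which also gave the promoter windows, and BVES did not.

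Alternatives were to skip background correction, to scale by the median, to drop the filter or tighten it (detection p below 0.01 on 4 or more arrays), to block on the replicate number, to use the methods' t-test and to leave out each array. Deviations of same-numbered arrays from their group means correlated at -0.06 to 0.16 across probes, so the numbers were not taken to pair arrays.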

Additional observations from a re-analysis of the deposited data

Results flagged for a closer look

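Genes are given here where the differences of the FAK hairpins from shCtrl were unequal in the 2 cell lines by a test of the interaction, the mean log2 difference from shCtrl in MIA PaCa-2 minus that in Capan-1. PTK2 itself was lowered unequally at probe 450253, with an interaction of -1.17 (limma adjusted p = 0.000213). Its dimmer probe 2680750 gave 0.47 (limma adjusted p = 0.152), not past the threshold. The part of PTK2 in these results was not tested. Values of the 3 selected genes are a description. The interaction was 2.14 for CLDN1, 1.03 for F11R probe 3850561 and -0.61 for CLDN12. F11R probe 3850561 was undetected in both MIA PaCa-2 shCtrl arrays. The other tested F11R probe, 50307, was undetected throughout MIA PaCa-2 and gave 0.07, not past the threshold. CLDN1 rose in both lines and by more in MIA PaCa-2. The F11R and CLDN12 calls were lost with median scaling, and that of CLDN12 also without MIA PaCa-2 shCtrl replicate 1 (-0.56) or Capan-1 shCtrl replicate 1 (-0.56).

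Of the membrane proteins, the interaction was 0.92 for CXADR (limma adjusted p = 0.00368), 0.79 for MARVELD2 (adjusted p = 0.0124) and -0.91 for ESAM (adjusted p = 0.0338). MARVELD2 lost the call without MIA PaCa-2 shCtrl replicate 1 (0.65) or Capan-1 shCtrl replicate 2 (0.75), with median scaling and without background correction. ESAM was past the threshold in 6 of 17 alternatives and lost the call when any 1 of 9 of the 12 arrays was left out, with -0.57 without MIA PaCa-2 shCtrl replicate 1.

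AMOT had an interaction of -1.28 (limma adjusted p = 0.00172) and kept its call in 17 of 17 alternatives, as did GRHL3 probe 50168 (-1.37, adjusted p = 0.000101) and CXADR. In MIA PaCa-2, AMOT was detected in 1 sh1209 array alone and GRHL3 probe 50168 in no array. A fall or a small change of either could not be measured in that line. CDX2 (-1.10, adjusted p = 0.0408) was past the threshold in 6 of 17 alternatives and also lost the call when any 1 of 9 of the 12 arrays was left out (-1.12 to -0.75). KLF4 probe 2810059 (0.88, adjusted p = 0.0114) lost the call without Capan-1 shCtrl replicate 2 (0.76) and with median scaling.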

How the results depend on the processing

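Of the 28 called differences of the 9 genes, 0 changed direction in any alternative. 28 remained past the threshold without background correction, 28 with the stricter filter, 26 without a filter, 27 with the replicate block and 24 with median scaling. The block lost the TJP1 probe 1010386 call between the lines (0.72) and changed no count of calls by over 1.5 times. Adjusted by Benjamini-Hochberg, the methods' t-test on 4 arrays kept 8 of the 25 calls it can test, all 8 between the cell lines. For the 9 genes it called 0 probes in each hairpin pair and 0 in each comparison of the hairpins, and for the tight junction lists 0 in each pair, where limma called 9, 10, 10 and 13. Over all tested probes it called 1 and 4 (MIA PaCa-2 pairs), 0 and 0 (Capan-1 pairs), 3905 (between lines), 1 and 2 (hairpins compared, MIA PaCa-2 then Capan-1). Unadjusted, it called 1 of the 9 genes' probes for sh1319 in Capan-1. It could not be applied to the interaction.

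Median scaling lowered the counts for the 9 genes to 1 (interaction) and 0 (hairpins compared in Capan-1), for the lists to 4 (sh1209 in MIA PaCa-2) and 6 (sh1209 in Capan-1), and for all tested probes to 2243 and 3846 (sh1209 and sh1319 in MIA PaCa-2), 2459 (sh1209 in Capan-1), 1834 (interaction), and 3477 and 1217 (hairpins compared). The hairpin comparison in Capan-1 had 4 calls among the 9 genes without background correction and 1 without a filter. The cause of these changes was not tested.

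Leaving out single arrays gave 1 to 2 calls of the 9 genes for sh1319 in Capan-1 and 0 to 3 for the hairpins compared there. List counts ranged from 5 to 9 and 6 to 11 (MIA PaCa-2) and from 6 to 9 and 6 to 13 (Capan-1), and all tested probes from 2170 to 4060 and 1742 to 3286 (Capan-1 pairs), 2212 to 3163 (interaction) and 1281 to 2715 (hairpins compared in Capan-1). The list counts fell by over 1.5 times without MIA PaCa-2 shCtrl replicate 1 (5 for sh1209, 6 for sh1319) or sh1209 replicate 1 (5), and in Capan-1 without shCtrl replicate 2 (6 for sh1209, 7 for sh1319), sh1209 replicate 2 (6), shCtrl replicate 1 (7 for sh1319), sh1319 replicate 1 (6) or sh1319 replicate 2 (7). All Capan-1 pair counts fell as much without any 1 of the 4 arrays of their pair. Where an array was left out, the remaining array of its group was assumed to vary like the other groups. Signals near the limit of detection, such as OCLN, allow no statement on small differences.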
